A study of Homo sapiens with 6 samples.

Results

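CD14 and the Toll-like receptors (TLRs) act with carrier and adaptor proteins in sensing microbial molecules at the cell surface and in endosomes. The expression of their genes was examined in A204 cells with and without SAHA. The set held 10 genes, chosen by name with earlier results of these data known: CD14, LY96, LBP, TLR1 to TLR6 and the adaptor MYD88. The probe set of a gene was selected on its mean level over all 6 arrays, the highest being taken. Each of the 9 members with a probe set named for that gene alone had 1 such probe set, so this choice changed nothing. TLR5 had none in the annotation used and was not analysed here. The 9 members are part of 18417 measured genes.

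A204 is an established human line from a rhabdoid tumour, a childhood cancer that typically lacks the chromatin remodelling subunit SMARCB1. The SAHA group was 3 arrays of A204 cells exposed for 12 h to SAHA (vorinostat), which inhibits histone deacetylases. The control group was 3 arrays of A204 cells given DMSO according to the treatment protocol, although a second label states no treatment. No duration is recorded for the control arrays. The SAHA dose carries an incomplete unit in the labels and is not given. All arrays come from 1 line, and nothing states whether the arrays of a group were separate cultures, so p-values cover array-to-array spread only, possibly of technical origin.

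LBP, a plasma protein made mainly by liver, carries bacterial lipopolysaccharide to CD14, which passes it to a complex of TLR4 and its partner MD-2, the product of LY96. TLR2 pairs with TLR1 or TLR6 to detect bacterial lipopeptides, TLR5 detects flagellin, and TLR3 detects double-stranded RNA in endosomes. Most of these receptors signal through MYD88, whereas TLR3 signals through the adaptor TICAM1 (TRIF), and both routes lead to NF-kB and interferon regulatory factors.

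Among the 9 measured members, CD14 was 4-fold higher and TLR3 1.98-fold lower in SAHA, MYD88 fell 1.37-fold, LY96 rose 1.32-fold at a low signal, and LBP rose 1.16-fold in a call lost under 9 of 16 alternative settings. TLR1, TLR2, TLR4 and TLR6 did not pass the test. At an adjusted p under 0.05 (limma over all genes), 3 members were higher and 2 were lower. CD14 is among the 3, and its rise was known beforehand, so the count is a description; of the other 8 members 2 were higher and 2 lower. Over all genes 60.0% were called, 31.1% as higher and 28.9% as lower, so neither 5 of 9 members nor 4 of 8 without CD14 is read as a result about them. The SAHA and control values did not overlap for 4 members, against 65.4% of all genes. CD14 alone among them differed by at least 2-fold, which 11.3% of all genes did. The median difference was 0.08 log2 units over the 9 members and -0.0027 over all genes.

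The members that the results turn on are shown by the 250 bases upstream of their RefSeq transcription start (GRCh38.p14), 5′ to 3′ on the gene's strand. These are the receptor gene with the rise and the receptor and adaptor genes with the falls. The windows are chr5:140633176-140633425 on the minus strand for CD14, chr4:186068906-186069155 on the plus strand for TLR3 and chr3:38138411-38138660 on the plus strand for MYD88. Capitals mark matches, on either strand, to any of 6 short motifs.
CD14: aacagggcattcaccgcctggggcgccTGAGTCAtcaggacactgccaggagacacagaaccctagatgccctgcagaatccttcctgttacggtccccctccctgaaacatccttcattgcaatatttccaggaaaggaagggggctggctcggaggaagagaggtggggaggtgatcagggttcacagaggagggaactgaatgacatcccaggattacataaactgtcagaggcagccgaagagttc
TLR3: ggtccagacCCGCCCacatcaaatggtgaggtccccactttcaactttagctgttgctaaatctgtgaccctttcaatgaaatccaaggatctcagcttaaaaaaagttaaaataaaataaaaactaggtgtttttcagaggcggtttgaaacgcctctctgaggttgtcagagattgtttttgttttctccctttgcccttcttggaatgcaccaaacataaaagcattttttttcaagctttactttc
MYD88: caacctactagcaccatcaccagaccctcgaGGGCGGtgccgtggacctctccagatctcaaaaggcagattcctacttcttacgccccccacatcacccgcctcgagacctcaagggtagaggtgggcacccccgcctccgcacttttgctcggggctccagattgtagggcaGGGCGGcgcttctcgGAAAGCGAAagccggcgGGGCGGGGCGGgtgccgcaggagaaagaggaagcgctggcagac

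The motifs searched were the GC box GGGCGG, bound by SP1-type factors, the CCAAT box CCAAT, the TATA box TATAAA, the AP-1 element TGANTCA, the core GAAANNGAA of elements bound by interferon regulatory factors, and the core GGGANTTTC of NF-kB sites. The CD14 window held 1 AP-1 element, 223 to 217 bases before the start. AP-1 elements were present in 6.57% of 35116 promoter windows of this length. The TLR3 window held 1 GC box on the opposite strand, 241 to 236 bases before the start. GC boxes were present in 42.6% of windows. MYD88 had 4 GC boxes, of which the pair nearest the start shared 1 base, and 1 interferon regulatory factor core at 61 to 53 bases. That core was present in 6.88% of windows, the CCAAT box in 32.0%, the TATA box in 10.7% and the NF-kB core in 1.12%, and these 3 last motifs had no match in the 3 windows printed. CpG dinucleotides numbered 5 for CD14, 3 for TLR3 and 19 for MYD88, against a median of 11 over all windows. Members that did not pass the test also varied. TLR2 held 2 GC boxes and 26 CpG, TLR4 held 1 and 5, and TLR6 held 0 and 4. Whether motifs or CpG numbers go with the changes was not tested. A match describes the letters only, and where transcripts start in A204 was not measured.

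CD14 encodes a membrane-anchored and also secreted coreceptor for lipopolysaccharide (probe set 8114612). It was known to rise in these data when the set was drawn up. No p-value is therefore given for it, and its standard error and interval only describe the spread of the arrays. Its log2 levels were 8.85, 8.99 and 8.98 on the control arrays and 10.92, 10.98 and 10.91 on the SAHA arrays. The 3 SAHA values lay close together and all stood far above the control values. On the deposited linear scale they correspond to signals of 460.1 to 509.7 in control and 1927 to 2026 in SAHA. The difference was 2.0 ± 0.05 log2 units (SE, n = 3 arrays a group), with a 95% interval of 1.88 to 2.13. Of 18417 genes, 211 (1.15%) rose by as much or more.

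LY96 encodes MD-2, which holds lipopolysaccharide beside TLR4 (probe set 8146934). Its control levels were 4.32, 4.15 and 4.21 and its SAHA levels 4.60, 4.54 and 4.75 in log2 units. The groups did not overlap, but all 6 values were dim, with a mean under 5. LY96 rose by 0.41 ± 0.07 log2 units (SE, n = 3, limma adjusted p = 0.00122). No detection calls were used, so whether this signal exceeds background is not known, and a fold between dim values may be compressed.

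LBP, the lipopolysaccharide carrier, was at 5.78, 5.56 and 5.56 in control and 5.76, 5.95 and 5.83 in SAHA (log2, probe set 8062461). Control replicate 1 lay above SAHA replicate 1, so the groups overlapped. LBP passed narrowly, with a rise of 0.21 ± 0.08 (SE, n = 3, limma adjusted p = 0.0469). The call ended in 9 of 16 alternatives (adjusted p from 0.00949 to 0.151), among them leaving out control replicate 2 (0.17, adjusted p = 0.137), control replicate 3 (0.17, adjusted p = 0.128), SAHA replicate 2 (0.16, adjusted p = 0.151) or SAHA replicate 3 (0.22, adjusted p = 0.0863).

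TLR4, the signalling receptor for lipopolysaccharide, had control levels of 4.96, 4.86 and 5.30 and SAHA levels of 5.10, 4.81 and 4.83 (log2, probe set 8157524). The values interleaved and the mean over all arrays was under 5. The difference of -0.13 ± 0.12 (SE, n = 3, limma adjusted p = 0.404) had an interval of -0.42 to 0.16. The difference was -0.000313 without control replicate 3, and -0.22 without control replicate 2 or without SAHA replicate 1.

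**Figure D1:**
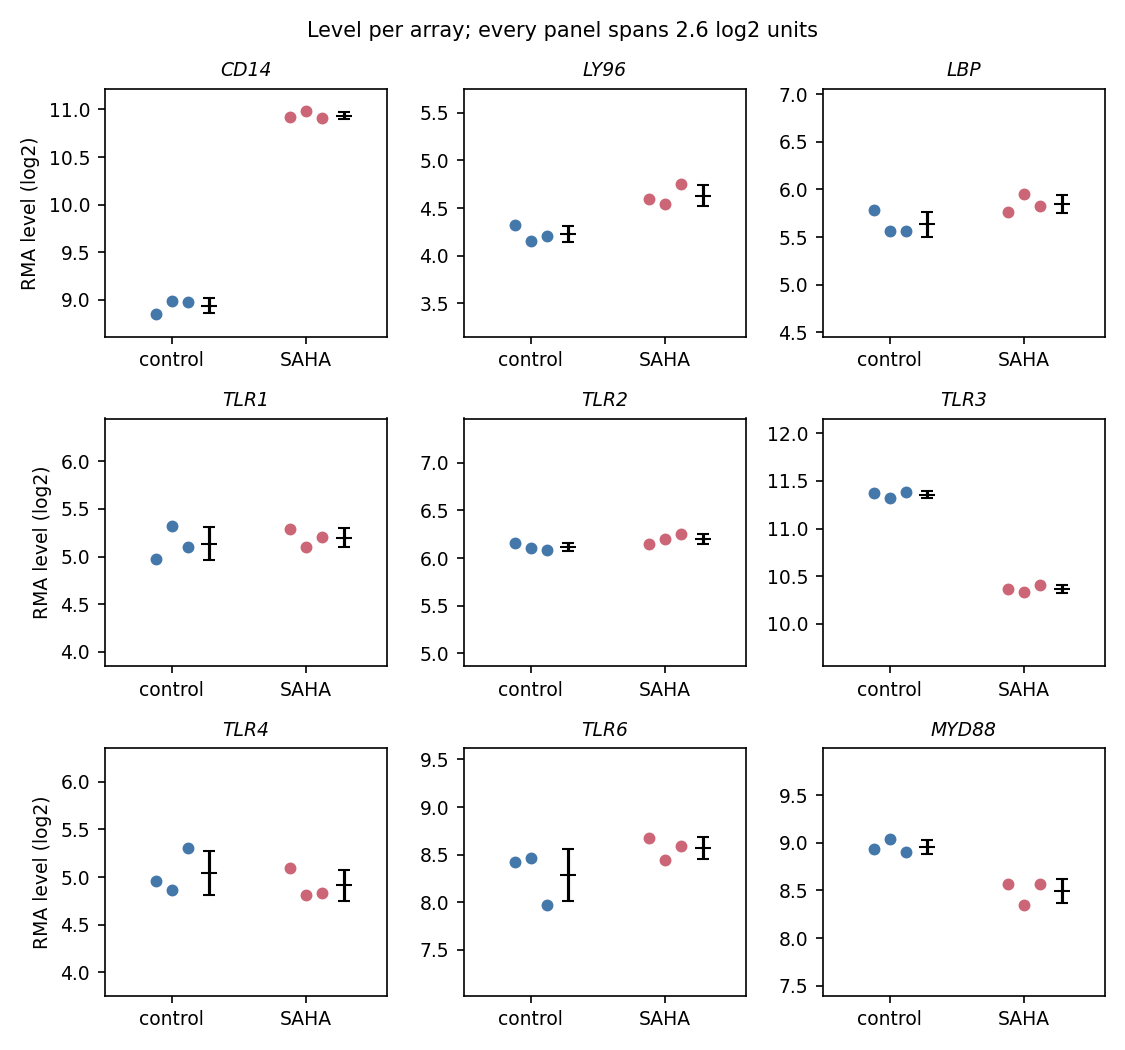
RMA level in log2 units (y axis) on each of 3 control arrays (blue) and 3 SAHA arrays (red) for the 9 measured members, with the mean and SD as black bars beside the points; all panels span the same number of log2 units. CD14 stands higher and TLR3 lower in SAHA with no overlap, LY96 and MYD88 also separate, and the groups overlap for LBP, TLR1, TLR2, TLR4 and TLR6.

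TLR3, the endosomal receptor for double-stranded RNA, fell in SAHA (probe set 8098611). Its log2 levels were 11.37, 11.32 and 11.38 in control and 10.36, 10.33 and 10.41 in SAHA, corresponding to linear signals of 2559 to 2658 and 1289 to 1365. The spread within each group was small beside the distance between them. TLR3 differed by -0.99 ± 0.04 log2 units (SE, n = 3, limma adjusted p = 4.47e-07), with an interval of -1.09 to -0.89. A fall of this size or more was found for 1022 genes, 5.55% of all measured.

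TLR2, the common partner of the lipopeptide receptors, was at 6.16, 6.11 and 6.08 in control and 6.15, 6.20 and 6.25 in SAHA (log2, probe set 8097903). These values overlapped, and the difference of 0.08 ± 0.05 (limma adjusted p = 0.194) had an interval of -0.03 to 0.19. TLR1 had control levels of 4.98, 5.32 and 5.10 and SAHA levels of 5.29, 5.10 and 5.21 (probe set 8099834). Here too the groups interleaved, with a difference of 0.07 ± 0.09 (limma adjusted p = 0.558) and an interval of -0.14 to 0.28. The sign of TLR1 turned without control replicate 1 (-0.00801).

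TLR6, a close paralog of TLR1 and its neighbour on chromosome 4, was at 8.42, 8.46 and 7.97 in control and 8.67, 8.44 and 8.59 in SAHA (log2, probe set 8099841). Control replicate 3 lay below the other 5 arrays, which were near each other. The difference of 0.28 ± 0.13 (SE, n = 3) did not pass (limma adjusted p = 0.0930, interval -0.02 to 0.58), and was 0.13 without control replicate 3. Paralogs may share probe signal, and which probes each probe set holds was not known here. In the order of RefSeq genes, TLR10 lies next to TLR1 and had no probe set named for it alone, while FAM114A1, on the other side of TLR6, fell from 10.86 ± 0.04 to 10.47 ± 0.05 (log2, SD, n = 3, limma adjusted p = 0.000165).

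MYD88, the adaptor that links most TLRs and the interleukin-1 receptors to IRAK kinases, had control levels of 8.93, 9.04 and 8.90 and SAHA levels of 8.57, 8.35 and 8.57 (log2, probe set 8078729). All SAHA values lay below all control values, with SAHA replicate 2 lowest. MYD88 fell by 0.46 log2 units (SE 0.07, n = 3, limma adjusted p = 0.000723). Its interval was -0.63 to -0.29. TLR3 and MYD88 both fell, the first by the larger amount, though the difference between their changes was not tested.

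Calls were more frequent among brighter genes. Of the 5 members with a mean under the median of all genes, 8.14 log2 units (LY96, LBP, TLR1, TLR2 and TLR4), 2 were called, against 40.6% of all genes under that level. Of the 4 at or above it (CD14, TLR3, TLR6 and MYD88), 3 were called, against 79.4%. CD14, whose rise was known beforehand, is among these 3.

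**Figure D2:**
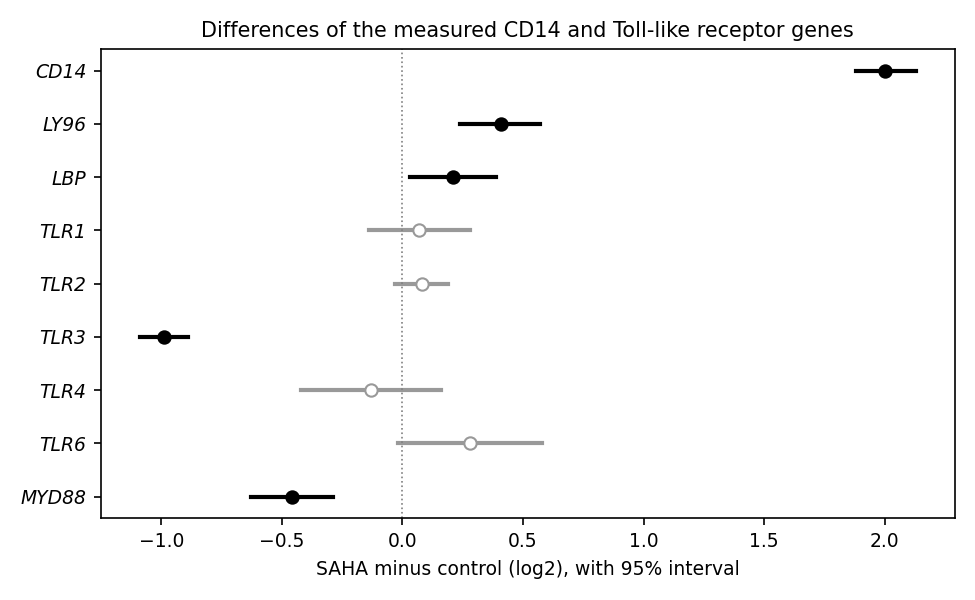
SAHA minus control in log2 units (x axis) with the 95% interval of the limma fit for the 9 measured members; filled points passed an adjusted p under 0.05 and open points did not. CD14 lies at 2.0 and TLR3 at -0.99, while the intervals of TLR1, TLR2, TLR4 and TLR6 include 0. The rise of CD14 was known beforehand, so its filled point is a description.

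The remaining receptors and helpers of the TLR family were taken from a list of 15 genes, of which 13 were measured. In it 2 rose and 2 fell, 9 missed the threshold, and the median difference was 0.03. Here and in the lists that follow, the shares over all genes to set beside the counts are 31.1% higher and 28.9% lower, with a median of -0.0027. UNC93B1, which escorts TLR3 and other endosomal receptors out of the endoplasmic reticulum, fell from 10.65 ± 0.21 to 9.57 ± 0.05 (log2, SD, n = 3, limma adjusted p = 2.56e-05), 2.11-fold lower. That gene had 3 probe sets, and only the brightest is reported. CNPY3, a chaperone needed for the surface receptors, fell from 11.47 ± 0.06 to 10.81 ± 0.04. Its relative CNPY4 rose by 0.45 log2 units, and SCARB1, a lipoprotein receptor that also binds lipopolysaccharide, rose by 0.74. TLR7 and TLR8, endosomal receptors for single-stranded RNA, were at 4.54 and 4.90 in control and 4.57 and 4.92 in SAHA. TLR9, a receptor for unmethylated DNA, was at 7.37 ± 0.15 and 7.57 ± 0.06, with adjusted p = 0.0516 (limma).

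Of 24 measured adaptors, kinases and transcription factors downstream of the receptors, 9 rose, 9 fell and 6 did not pass (median 0.10). After a further quantile normalization 12 rose and 7 fell. The falls were led by TRAF3, a ubiquitin ligase on the TICAM1 route, from 9.25 ± 0.08 to 8.07 ± 0.09. IRAK1, the kinase recruited by MYD88, fell from 9.19 ± 0.09 to 8.12 ± 0.10, a 2.09-fold change (limma adjusted p = 3.22e-06). IKBKB, a catalytic subunit of the kinase that frees NF-kB, changed by -0.88. TAB3, an adaptor of the kinase TAK1, rose by 0.56. TICAM1 itself was at 8.65 ± 0.08 in control and 8.77 ± 0.07 in SAHA and did not pass (limma adjusted p = 0.117).

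Among 13 inhibitors of TLR signalling, 8 were higher and 1 lower, while 4 missed the threshold, and the median difference was 0.27 log2 units. CYLD, a deubiquitinase, rose by 0.78 (limma adjusted p = 3.58e-06), RNF216, a ubiquitin ligase that targets TLRs, by 0.48, and TOLLIP, which restrains IRAK kinases, by 0.56. The gene that fell was TNIP1, a partner of the deubiquitinase TNFAIP3, from 9.55 ± 0.12 to 8.73 ± 0.03. TNFAIP3 rose from 6.56 ± 0.18 to 7.45 ± 0.05.

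Genes that TLR signalling is known to induce in many cells were also listed, and 12 of 24 measured rose, 1 fell and 11 did not pass (median 0.19). The neutrophil chemokine CXCL8 was at 9.70, 9.42 and 9.81 in control and 12.30, 12.29 and 12.33 in SAHA, a rise of 2.67 ± 0.09 log2 units (SE, n = 3, limma adjusted p = 1.25e-07). PTGS2, the inducible cyclooxygenase, rose 6.43-fold, from levels of 6.07, 6.47 and 6.40 to 9.04, 8.92 and 9.02. ICAM1, a leukocyte adhesion molecule, went from 6.85 ± 0.09 to 8.14 ± 0.04. CCL20, a chemokine for CCR6-bearing cells, had the largest rise of the list at 4.78 log2 units from a dim control level of 4.99 ± 0.23. All of these stood clear of their control values. Others did not pass: the macrophage cytokines TNF and IL1B differed by 0.01 and 0.09, and IFNB1, a product of the TLR3 route, by 0.06. The gene that fell was LIF, an interleukin-6 family cytokine, from 10.72 ± 0.08 to 9.41 ± 0.07.

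LBP belongs to the acute-phase proteins of plasma, and 14 others of that class were measured, with 1 higher, 2 lower and 11 that did not pass (median -0.05). C3, the central complement protein, rose from 6.15 ± 0.14 to 7.90 ± 0.09. SERPINA3, a protease inhibitor, changed by -0.71 and ORM2, a plasma carrier whose sequence is close to that of ORM1, by -0.26. FGB, the fibrinogen beta chain, did not pass (-0.12). All 14 had means under the median of all genes.

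**Figure D3:**
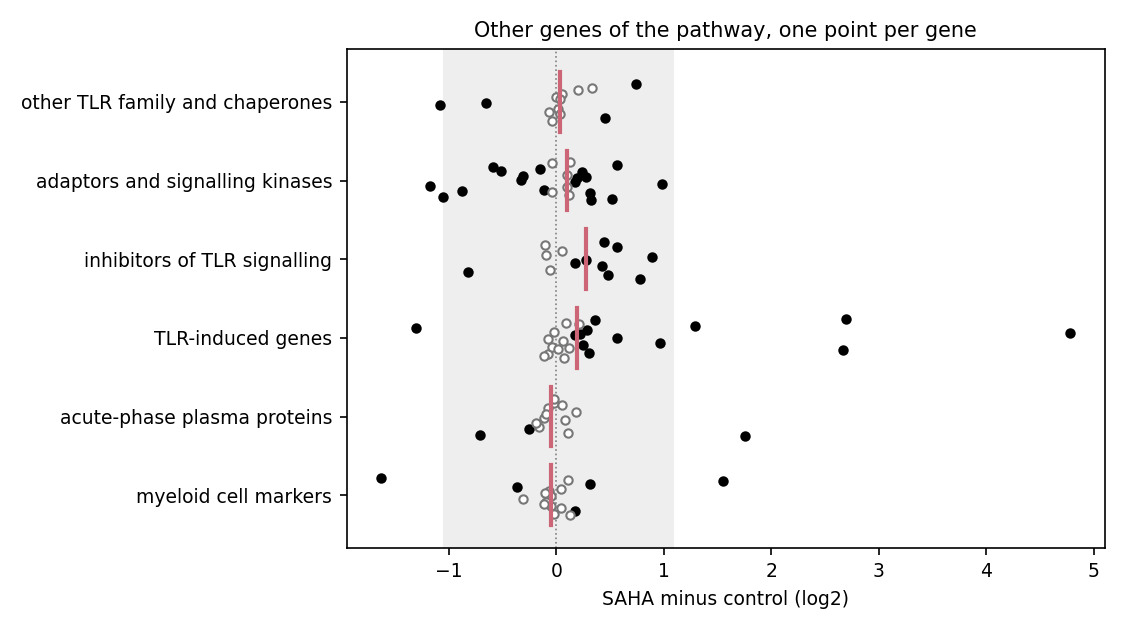
SAHA minus control in log2 units (x axis) for the measured genes of 6 lists, 1 point a gene; filled points passed an adjusted p under 0.05, open points did not, red bars are list medians, and the grey band spans the 5th to 95th percentile of all genes (-1.05 to 1.08). CCL20, PTGS2, CXCL8 and ICAM1 of the TLR-induced list, C3 and CD68 lie above the band, and CSF1R, LIF, TRAF3, UNC93B1 and IRAK1 lie below it.

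CD14 is itself a marker of monocytes, so other myeloid markers were set beside its rise. Of 17 measured, 3 rose, 2 fell and 12 did not pass (median -0.05). Their summed linear signal ran from 5212 to 5638 in control and from 6045 to 6180 in SAHA. Without CD68, a sum added after the values were seen, it ran from 4722 to 4993 in control and from 4475 to 4596 in SAHA. That sum still held CSF1R, which fell from linear signals of 466.4 to 526.5 in control to 152.7 to 169.5 in SAHA. It also held CEBPB, the brightest marker, at 2103 to 2138 in control and 2335 to 2412 in SAHA. The sum is therefore not read as a trend of the markers in general. CD68, a lysosomal membrane protein of macrophages, rose from 9.09 ± 0.22 to 10.63 ± 0.02, and ITGAX, an integrin of dendritic cells, by 0.31. The remaining rise was that of CEBPB, from 11.05 ± 0.01 to 11.21 ± 0.02 (log2, SD, n = 3, limma adjusted p = 0.00725). CSF1R, the macrophage growth factor receptor, fell from 8.95 ± 0.09 to 7.32 ± 0.08, and CEBPD, a transcription factor of myeloid cells, by 0.37. No array value is 0. The defining leukocyte gene PTPRC (CD45) was dim on every array, at 3.97, 4.06 and 4.11 in control and 4.22, 4.03 and 4.01 in SAHA. LYZ was at 4.55 and 4.53 and CD163 at 4.87 and 4.80, also within their spread. Brighter markers that did not pass were LAPTM5 at 8.62 ± 0.32 and 8.31 ± 0.04, TYROBP at 8.21 and 8.32, CEBPA at 8.23 and 8.19 and SPI1 at 7.46 and 7.34. The part of other cells in the rise of CD14 was not tested. Bulk arrays cannot tell apart a change in the number of cells of a type from a change of RNA per cell.

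Markers of lymphocytes and endothelium gave 1 rise and 2 falls among 9, with all values between 4.36 and 7.0 log2 units. KDR, an endothelial growth factor receptor, rose by 0.64, CD79A of B cells changed by -0.28 and TEK by -0.18, while VWF did not pass (0.22). For the identity of the line, the keratins KRT8 and KRT18 stood at 13.55 and 13.54 and vimentin, VIM, at 12.81 in control, the pairing of filament genes usual in rhabdoid tumours. KRT18 and VIM fell by 0.21 and 0.18, and desmin, DES, rose by 0.76. SMARCB1 read 7.74 ± 0.04 in control and 7.22 ± 0.05 in SAHA, and these arrays do not settle whether an intact transcript is present.

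The genes next to CD14 on chromosome 5 were compared with it. Of its 6 nearest measured neighbours, 5 rose and 1 fell, against 31.1% of all genes higher and 28.9% lower. All 6 had means above the median of all genes, where 79.4% of genes were called. In a fit restricted to genes at or above that median, 47.8% of the genes called were higher. In chromosomal order APBB3 rose by 0.81, SLC35A4, a nucleotide sugar transporter, changed by -0.15 and TMCO6 rose by 0.63. On the other side NDUFA2, a respiratory complex I subunit, rose by 0.73, the splicing factor gene IK by 0.69 and WDR55 by 0.41 (all limma adjusted p from 2.53e-06 to 0.0211, n = 3). CD14, at 2.0, changed more than any of these 6. Its rise was known beforehand, whereas the 6 were taken by position, so this ranking is a description only.

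**Figure D4:**
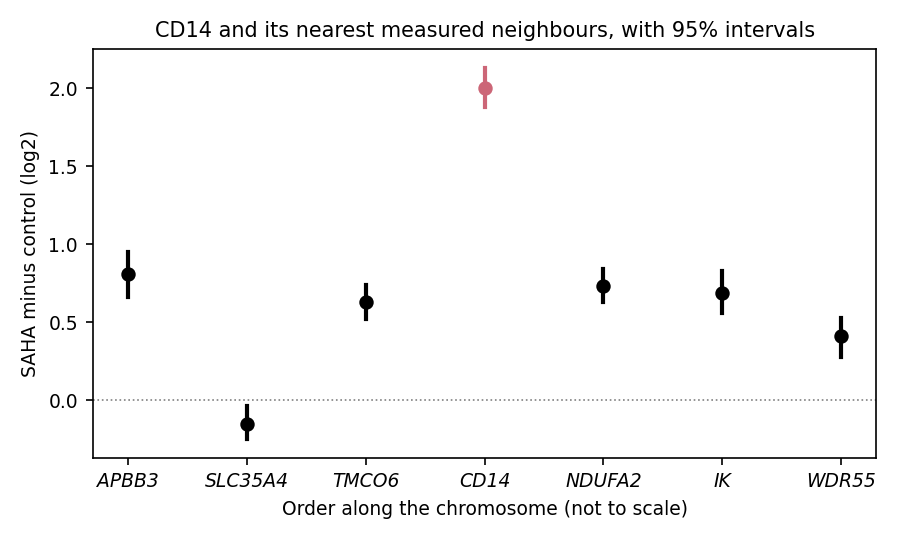
SAHA minus control in log2 units (y axis) with 95% intervals for CD14 (red) and the 3 nearest measured genes on each side (black), in chromosomal order and not to scale along x. The intervals of the neighbours all lie below that of CD14, whose rise was known beforehand, and SLC35A4 alone lies below 0.

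Genes whose levels over the 6 arrays most resembled those of CD14, by the smallest Euclidean distance after each gene's own mean was subtracted, were DPYSL5, a protein of axon guidance, IL36G, an interleukin-1 family cytokine, CLMN, PLEKHB1 and SLC45A1, a sugar transporter. Their distances were 0.0557, 0.105, 0.123, 0.124 and 0.131 log2 units in that order. With 2 groups of 3 arrays this likeness reflects chiefly the size of the difference, which ran from 1.97 to 2.01 in these 5 genes. DPYSL5 was at 6.85 ± 0.08 in control and 8.86 ± 0.07 in SAHA, and IL36G at 5.90 ± 0.07 and 7.90 ± 0.05 (log2, SD, n = 3).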

How the data were processed

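Total RNA from A204 cells was prepared for Affymetrix whole-transcript arrays with the WT Expression Kit of Ambion, per the labels' protocols. The deposited values are RMA intensity values on a linear scale (6.56 to 20338), per the submitters' processing notes and the values; no source used here names the software or the array annotation. Array medians lay between 142 and 149. After log2, Pearson correlations over all 33252 probe sets were 0.9965 to 0.9980 within and 0.9728 to 0.9738 between groups.

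Probe sets naming 1 gene (19460) were kept; symbols were updated by Entrez identifier for 19429 with a RefSeq table of GRCh38.p14. The probe set with the highest mean stood for each of 18417 genes. Among the genes named, UNC93B1 and TNF had 3 probe sets each and KRT18 had 2, and their other probe sets are not reported. SAHA was compared with control by limma 3.58.1 (R 4.3.3; lmFit, eBayes, no covariates, two-sided, Benjamini-Hochberg over all genes). The code was run on simulated data with far fewer changed genes than were called here. That check set no requirement for the smallest simulated differences, so it does not cover this setting. No gene was filtered. Promoter sequences came from RefSeq, which matched 7 of the 10 members; promoters were cut at the transcription start.

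Members and gene lists were chosen with earlier results of these data known. Besides the members, the text names the 4 genes of each list with the smallest adjusted p, and, by rule, neighbours and genes resembling CD14. TLR7 to TLR9, TICAM1, TNFAIP3, TNF, IL1B, IFNB1, LIF, PTPRC, LYZ, CD163, LAPTM5, TYROBP, CEBPA, CEBPB, SPI1 and KRT8 were added after their values were seen. No lists were tested as sets. Alternatives were a further quantile normalization, cyclic loess, median centring, 2 filters on dim genes, other uses of probe sets, other variance settings, array weights, a replicate block and each array left out.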

Additional observations from a re-analysis of the deposited data

How the results depend on the processing

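LY96, TLR3 and MYD88 kept their direction and passed in all alternatives in which they were tested (15, 17 and 17). Their differences ran from 0.34 to 0.47, -1.01 to -0.94 and -0.49 to -0.38 log2 units. The difference of CD14, given as a description, ran from 1.95 to 2.05. TLR2 (0.05 to 0.10), TLR4 (-0.22 to -0.000313) and TLR6 (0.13 to 0.37) passed in none. LBP passed in 7 of 16 alternatives; its call also ended with median centring (adjusted p = 0.0565), trend and robust options (0.0518), the unmoderated test (0.137), array weights (0.104) and the replicate block (0.0784). The sign of TLR1 turned without control replicate 1 (-0.00801, adjusted p = 0.949); it ran from -0.00801 to 0.16 over arrays left out, and the cause was not tested. The number of members higher fell from 3 to 1 with the filter at the median level, since 5 of 9 members, LY96 and LBP included, were then not tested. After a further quantile normalization, acute-phase genes higher went from 1 to 2. In that setting lymphocyte and endothelial markers went from 1 higher and 2 lower to 2 and 1. Adaptors went from 9 higher and 9 lower to 12 and 7, and TLR-induced genes higher from 12 to 13. Other TLR family genes higher went from 2 to 3 (also with the replicate block), and myeloid markers lower from 2 to 3. Adaptors lower went from 9 to 8 with the replicate block. The cause of these moves was not tested. With the replicate block 10601 genes were called, against 11049. Whether the shared numbers pair the arrays is not known. Deviations from the group means correlated at -0.03, -0.17 and -0.00 for the 3 shared numbers, and 0 of 6 arrays correlated best with its own number. With 3 arrays a group these values show no pairing but cannot exclude a small shared effect. Signal over background was not known, which limits every statement on TLR1, TLR4, LY96 and other dim genes.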
